A study of Mus musculus with 2 samples.

Results

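The miR-23/27/24 family was described here in microvesicles (MVs) released by mouse mesenchymal stem cells (MSCs) cultured with or without erythropoietin (EPO). Members were taken by a rule on names, set with earlier results of these data known: every array entry with the stem miR-23a, miR-23b, miR-24, miR-27a or miR-27b counted, whatever its suffix. This gave 11 of the 831 deposited entries, namely 5 guide arms (the -3p strands) and 6 passenger arms (the -5p strands). EPO-MVs came from MSCs kept for 48 h in DMEM/F12 medium with fetal bovine serum, antibiotics and EPO, and MSC-MVs came from the same medium with no EPO. The dose is listed as 100 IU/ml. The paper tested several doses and describes 100 IU as optimal, but its array methods name none. The MSCs were primary bone marrow cells of 4-week-old male C57BL/6 mice at passage 3, and the labels and methods do not say how many animals stood behind each RNA sample. Both MV preparations were pelleted at 100000 g after the supernatant had been cleared at 3000 g, and the RNA was hybridized to 1 miRCURY LNA array per condition. The miRCURY LNA array captures short RNAs on probes that hold locked nucleic acids, which raise the strength of pairing. With 1 array per condition there was no replicate error and no test was run, so that an effect of the array and an effect of EPO cannot be told apart. Fewer MVs that carry a miRNA and less of that miRNA per MV cannot be told apart either.

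miRNAs are short RNAs that lower the output of messenger RNAs by pairing, mainly through the seed, bases 2 to 8 from their 5′ end. The miR-23/27/24 family is encoded in a pair of paralogous clusters, in each of which 1 miR-23, 1 miR-27 and 1 miR-24 hairpin lie in a row and can be made from a common transcript. It is known for roles in blood vessel growth, in TGF-β signalling, and in the choice of mesenchymal cells between bone and fat. miR-27 represses Pparg, the master regulator of fat cell formation, the miR-23a cluster restrains osteoblast formation, and miR-24 represses cell cycle and apoptosis genes.

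The mature sequences are shown first because they decide which entries can report on which cluster. Mature sequences were taken from a RefSeq table (GRCm38.p6) for 10 of the 11 entries, and that of miR-23b-3p was not used here. The guide arms follow 5′ to 3′, with the seed in capitals.
miR-23a-3p: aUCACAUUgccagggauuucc
miR-27a-3p: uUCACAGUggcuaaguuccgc
miR-27b-3p: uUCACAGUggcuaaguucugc
miR-24-3p: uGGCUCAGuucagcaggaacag
Counted from the 5′ end, miR-27a-3p and miR-27b-3p differed by the substitution C19U alone, which lies outside the seed, and were identical over their first 18 bases (95.2% identity over 21 bases). The seeds of miR-23a-3p and miR-27a-3p began with the same 5 bases, while the seed of miR-24-3p was unlike either. The probe sequences were not used here, and the share of a signal that comes from the closely related paralog was not tested.

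The passenger arms are shown, again with bases 2 to 8 in capitals, because they separate the clusters better than the guide arms do.
miR-23a-5p: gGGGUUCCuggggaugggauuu
miR-23b-5p: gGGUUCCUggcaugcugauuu
miR-27a-5p: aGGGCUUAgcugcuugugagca
miR-27b-5p: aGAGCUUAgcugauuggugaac
miR-24-2-5p: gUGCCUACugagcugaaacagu
miR-24-1-5p: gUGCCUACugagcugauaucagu
The miR-27 passenger arms differed at 8 of 22 bases. The miR-24 passenger arms shared their first 16 bases, the seed included, and then diverged.

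In GRCm38.p6 the miR-23a cluster (Mir23a, Mir27a and Mir24-2) spans chr8:84208518-84208921 on the plus strand, 404 bp that lie within no other RefSeq gene, with Zswim4 as the nearby protein-coding gene. The miR-23b cluster (Mir23b, Mir27b and Mir24-1) spans chr13:63300484-63301275 on the plus strand, 792 bp inside the gene Aopep. The array values are listed by miRNA name with no genome build, and the coordinates are those of the RefSeq hairpins. The miR-24 hairpins are printed with the guide arm in capitals because both release the same miR-24-3p, so that its single entry reports on both clusters together.
Mir24-2: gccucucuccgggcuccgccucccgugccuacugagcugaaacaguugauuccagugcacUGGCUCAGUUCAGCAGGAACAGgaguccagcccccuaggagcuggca
Mir24-1: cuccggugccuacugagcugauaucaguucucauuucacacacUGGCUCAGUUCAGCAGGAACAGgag

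The deposited value is a normalized intensity on a linear scale, and the ratio below is the EPO-MV value divided by the MSC-MV value. On both arrays the values came in whole steps of the smallest one, with 471 steps per unit of normalized intensity for EPO-MVs but 447 for MSC-MVs. Values given as with EPO are those of the EPO-MV array, and values given as without those of the MSC-MV array. Intensity of different probes depends on the probe as well as on the RNA, so members were compared by their ratios and not by their brightness. Brightness served only to set each entry beside others measured with like precision, in 4 groups of nearly equal size, from the dimmest to the brightest by mean log2 intensity. The brightest group spanned 375 to 130919 steps with EPO, with a median of 1406.5, so it is a wide range and not a set of equals. The 5 guide arms, all brighter than most of that group, lay between 5703 and 24217 steps with EPO and between 6891 and 25154 without. They reached at most 18.5% and 19.2% of the brightest entry of the arrays, and at this brightness 1 step more or less barely moved their ratios.

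All 11 entries had a lower deposited value in EPO-MVs than in MSC-MVs, whereas 8 did with quantile normalization (the other 3 at a ratio of 1), 10 after lowess, which removes the trend of the ratio with brightness, and 8 when the arrays were scaled to their summed intensity. Of all 831 entries, 48.5% lay below with quantile normalization, 49.6% after lowess and 31.6% with scaling to the summed intensity. With the deposited values, 43.9% of all entries lay below their MSC-MV value by any amount, and of the 208 entries in the brightest group, where all 5 guide arms lay, 63% did. The median ratio of the 11 entries was 0.807, that of the 5 guide arms 0.789 and that of the 6 passenger arms 0.889. Over all entries it was 1.04, and over the brightest group 0.942. The ratios of the members ranged from 0.649 to 0.926. At the 1.5-fold threshold of the study, 1 of the 11 entries, miR-23b-3p, passed as lower and none as higher. Of all entries, 25.4% passed in either direction, 17.8% as higher and 7.58% as lower, and in the brightest group 7.69% passed as lower. A count of 1 in 11 is thus close to this background and is no result about the family.

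**Figure D1:**
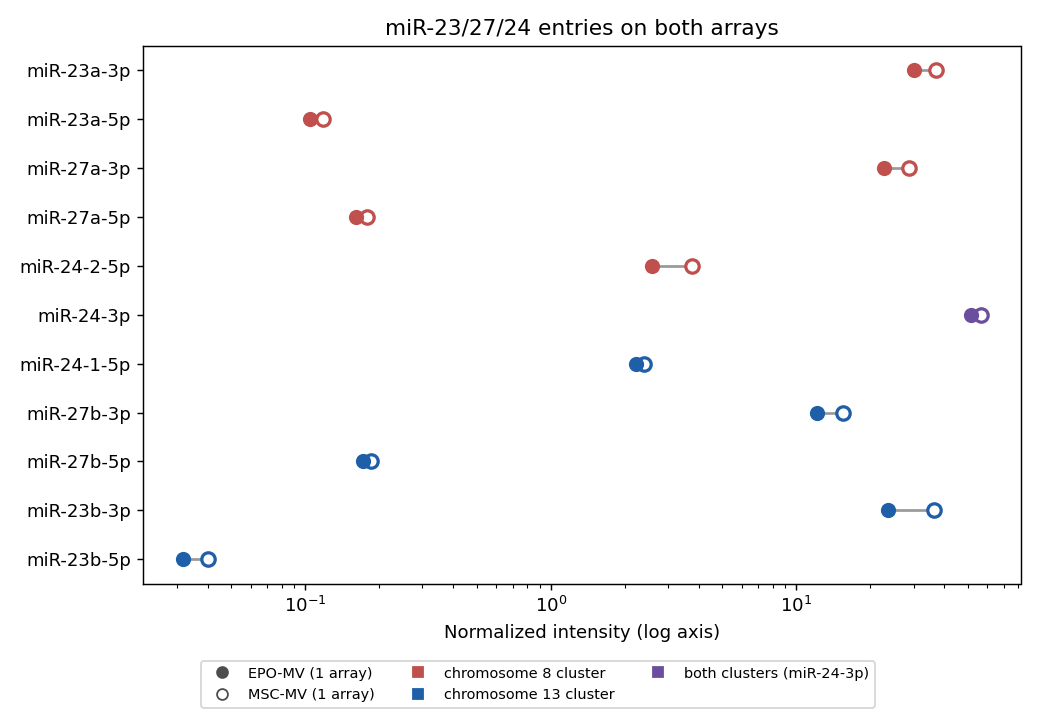
Normalized intensity (log axis) of the 11 miR-23/27/24 entries, with filled points for the EPO-MV array and open points for the MSC-MV array. With the deposited values, each filled point lies left of its open point, with the widest gaps for miR-23b-3p (ratio 0.649) and miR-24-2-5p (ratio 0.690); brightness is not comparable between entries.

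Among the guide arms, the miR-23 pair was described first. The entry mmu-miR-23b-3p, from the chromosome 13 cluster, had an intensity of 23.5 for EPO-MVs against 36.3 for MSC-MVs. Its ratio of 0.649, a log2 ratio of -0.62, was the lowest of the family, and 13 of the 208 entries of the brightest group, itself included, had a ratio this low. The entry mmu-miR-23a-3p, from the chromosome 8 cluster, had 30.0 against 37.2, a ratio of 0.807. Both were below their MSC-MV value, and the ratio of miR-23a-3p was 1.24 times that of miR-23b-3p. This gap was 0.31 on the log2 scale. Single entries of the brightest group had a standard deviation of 0.30 on that scale, and gaps between 2 entries drawn from it spread more widely. That spread is over different miRNAs and is no measurement error.

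The miR-27 guide arms, which share their seed and act on the fat cell programme, had like ratios. For mmu-miR-27a-3p the intensity was 22.8 with EPO and 28.9 without, a ratio of 0.789. For mmu-miR-27b-3p it was 12.1 and 15.4, a ratio of 0.785. Neither passed 1.5-fold, and their ratios differed by 0.01 on the log2 scale. Whether the 2 probes tell apart sequences that differ by C19U alone was not tested.

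The entry mmu-miR-24-3p, the product of both clusters, had an intensity of 51.4 with EPO and 56.3 without. Its ratio of 0.914 was the nearest to 1 among the guide arms. Within the brightest group it lay close to the middle, since 92 of the 208 entries had a ratio as low or lower. Most entries of that group were dimmer than miR-24-3p, however, and after lowess its ratio was 1.07. The order of the guide arms by ratio, from low to high, was therefore miR-23b-3p, miR-27b-3p, miR-27a-3p, miR-23a-3p and miR-24-3p. The 3 in the middle lay within 0.785 to 0.807, and with no replicate no neighbours in this order can be called different.

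**Figure D2:**
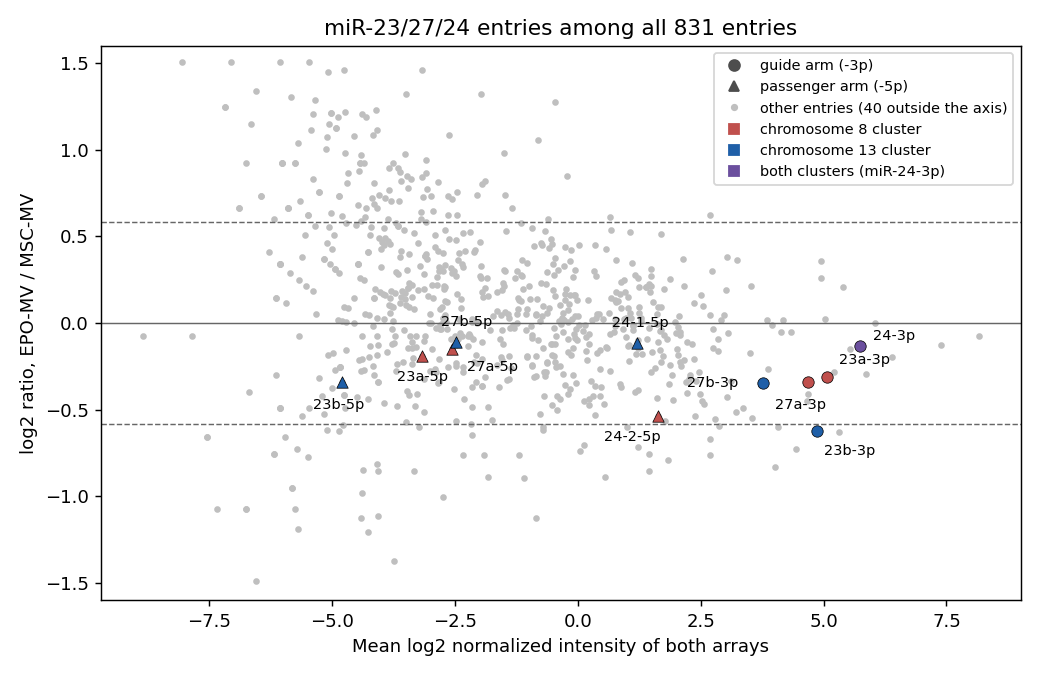
The log2 ratio of EPO-MV to MSC-MV against the mean log2 intensity of both arrays for all 831 entries (grey, of which 40 lie outside the vertical axis) with the 11 miR-23/27/24 entries coloured by cluster; dashed lines mark 1.5-fold. With these deposited values all members lie below 0, and only miR-23b-3p lies beyond the lower line.

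The passenger arms formed a brighter and a dimmer set. The miR-24 passenger arms were in the brightest group and their ends differ in sequence between the clusters. miR-24-2-5p, from the chromosome 8 cluster, had an intensity of 2.59 with EPO and 3.75 without, a ratio of 0.690 that stopped just short of 1.5-fold. miR-24-1-5p, from the chromosome 13 cluster, had 2.21 and 2.40, a ratio of 0.923. The ratio of miR-24-1-5p was 1.34 times that of miR-24-2-5p, the widest gap between paralogs in the family, at 0.42 on the log2 scale.

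The other 4 passenger arms were dim. miR-27a-5p had 76 steps with EPO and 80 without, a ratio of 0.902. miR-27b-5p had 81 and 83 steps, a ratio of 0.926. Both stayed close to their MSC-MV level, as did miR-23a-5p with 49 and 53 steps and a ratio of 0.877. miR-23b-5p was the dimmest member, with 15 and 18 steps and a ratio of 0.791. A change of 1 step on each array would take the ratio of miR-23b-5p anywhere from 0.699 to 0.893, so its value is set by a few steps. In the dimmest group of the entries, to which it belongs, 61.4% of entries passed 1.5-fold in either direction, most of them as higher (46.4%), while miR-23b-5p passed in neither with the deposited values and as lower under quantile normalization (0.594) and lowess (0.607).

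The arms were then set side by side by hairpin and cluster. In 5 of the 6 hairpins the guide arm had the lower ratio with the deposited values, and in 0 of the 6 after quantile normalization or lowess, so the order of the arms rests on the treatment of the trend with brightness. The difference was 0.12 on the log2 scale for Mir23a, 0.19 for Mir27a, 0.24 for Mir27b and 0.29 for Mir23b. For Mir24-1 the arms were level, at ratios of 0.914 and 0.923. Mir24-2 was the exception, with its passenger arm at 0.690 and the shared guide arm at 0.914. The dim passenger arms lay where the ratios of all entries ran higher, with a median of 1.12 in the second-dimmest group, which held 3 of them, and 1.42 in the dimmest, which held miR-23b-5p, against 0.942 in the brightest.

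The clusters as wholes had similar median ratios. The 5 entries found only in the chromosome 8 cluster had a median ratio of 0.807 (range 0.690 to 0.902), and the 5 found only in the chromosome 13 cluster had 0.791 (range 0.649 to 0.926). The latter median is the value of the dim miR-23b-5p. Under quantile normalization the medians were 0.834 for chromosome 8 and 0.858 for chromosome 13, and after lowess 0.835 and 0.861, so their order turned. The gaps had no common direction. For miR-23 the guide arm of chromosome 13 had the lower ratio, for the miR-24 passenger arms the one of chromosome 8 did, and the miR-27 guide arms were level with the deposited values. Such gaps within an array do not change when an array is rescaled by a single factor. Under quantile normalization, which forces both arrays to 1 distribution, the gap between the miR-23 guide arms narrowed to 1.10 times, that of the miR-27 guide arms was 1.09 times, and the gap between the miR-24 passenger arms was 1.36 times. After removal of the trend with brightness by lowess they were 1.25, 1.02 and 1.32 times. The ratio of miR-23a-5p was 1.11 times that of miR-23b-5p with the deposited values, 1.31 times under quantile normalization and 1.28 times after lowess. It was 1.004 times once a pseudocount, a small constant, was added to all values. The gap rests on the few steps of miR-23b-5p.

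**Figure D3:**
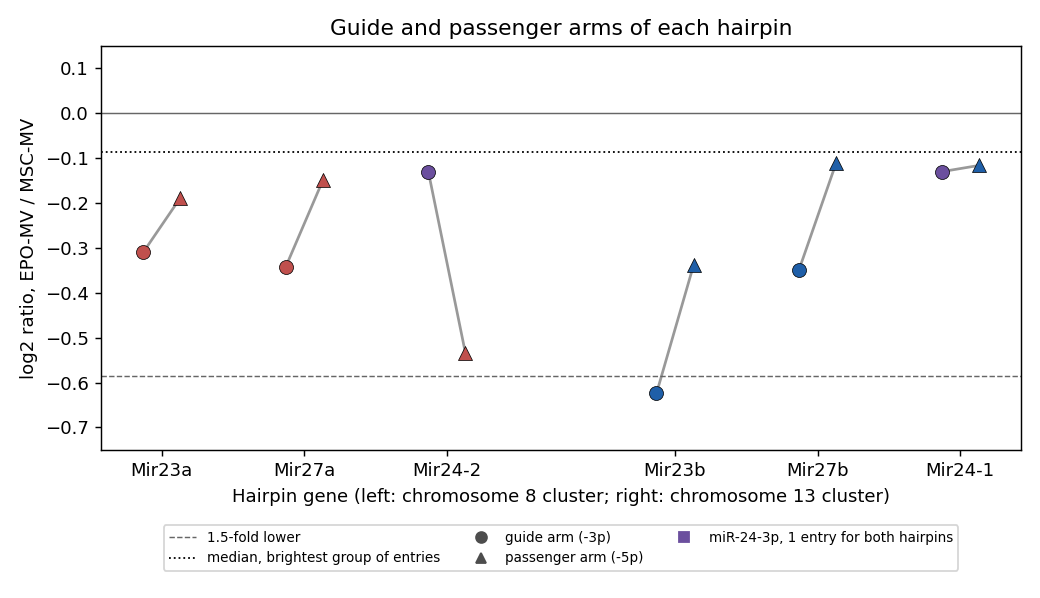
The log2 ratio of EPO-MV to MSC-MV for the guide arm (circle) and the passenger arm (triangle) of each hairpin, with the chromosome 8 cluster on the left and the chromosome 13 cluster on the right; the single miR-24-3p entry is drawn at both of its hairpins. With the deposited values, the lowest points are the guide arm of Mir23b (-0.62) and the passenger arm of Mir24-2 (-0.53).

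How far below MSC-MVs the guide arms lay depended on the scaling between the arrays. Over 9 other ways to scale or transform the values, miR-23b-3p had ratios from 0.627 to 0.768. It was below 1 under all 9 and passed 1.5-fold under 3, so its call rests on the scaling although its direction did not turn. miR-23a-3p ranged from 0.779 to 0.937 and miR-27b-3p from 0.759 to 0.915, below 1 under all 9. miR-27a-3p ranged from 0.762 to 1, where 1 means that it held the same rank on both arrays under quantile normalization. miR-24-3p ranged from 0.883 to 1.07 and was below 1 under 6 of the 9. It was at 1 under quantile normalization, at 1.002 when both arrays were scaled to their summed intensity, and at 1.07 after lowess, so no direction can be given for it.

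**Figure D4:**
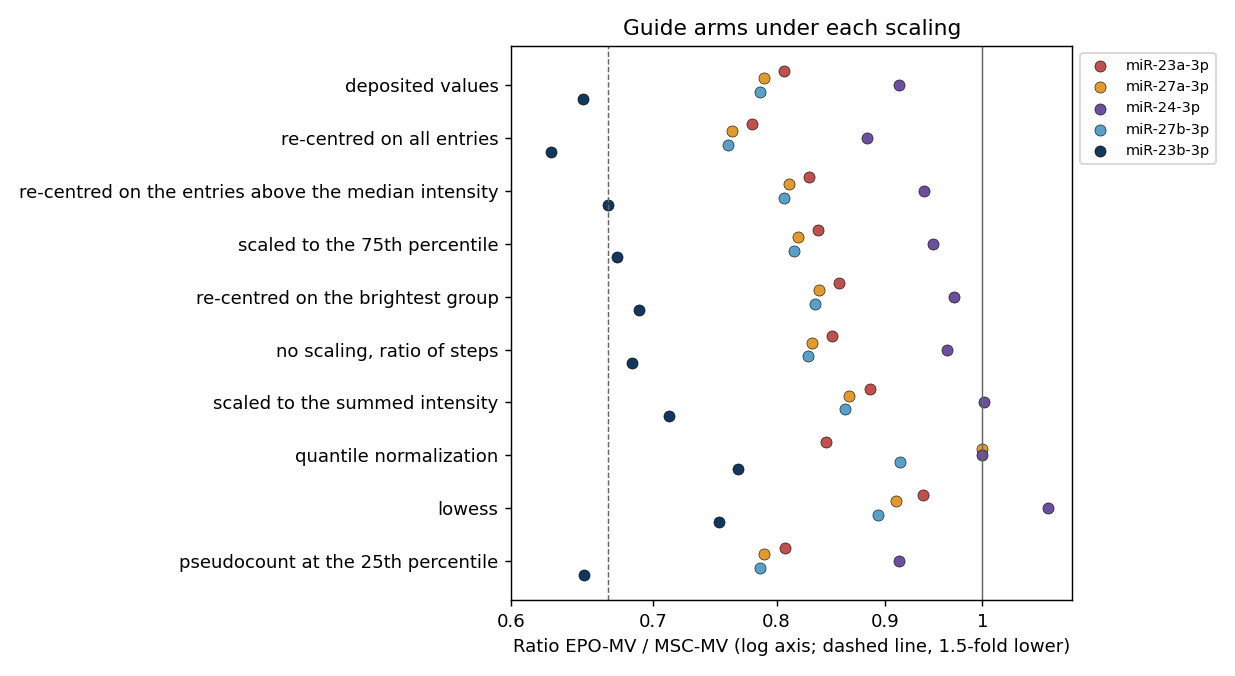
Ratio of EPO-MV to MSC-MV (log axis) of the 5 guide arms with the deposited values and under 9 other scalings or transformations; the solid line marks a ratio of 1 and the dashed line 1.5-fold lower. miR-23b-3p stays left of the other guide arms throughout, and miR-24-3p reaches or crosses 1 under 3 of them.

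Of the other entries matched to a mature sequence in this RefSeq table (680 of the 831 entries were, 81.8%), miR-128-3p was the only one related to a guide arm with a known sequence by the seed rule. It carries the miR-27 seed shifted by 1 base, at positions 1 to 7, shown in capitals.
miR-128-3p: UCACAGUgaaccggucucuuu
miR-128-3p, best known from neurons, had 13 steps with EPO and 16 without, a ratio of 0.771. Its ratio was near those of miR-27a-3p and miR-27b-3p, but it rests on few steps.

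Entries with the most similar ratio were looked up for each guide arm within the brightest group, over 2 arrays and 207 other entries, so that close matches are bound to occur. The nearest to miR-23b-3p was miR-143-3p, a miRNA of smooth muscle and stromal cells, with intensities of 31.9 and 49.3 and a ratio of 0.648, followed by miR-223-3p, a miRNA of myeloid blood cells, with a ratio of 0.659. The nearest to miR-23a-3p were miR-101a-3p (0.811) and miR-210-3p (0.813), the latter induced by low oxygen. For miR-27a-3p they were miR-19a-3p (0.789) and miR-466i-3p (0.792). For miR-27b-3p they were miR-196a-5p (0.784) and let-7e-5p (0.782). For miR-24-3p they were miR-99b-5p (0.914) and miR-5125 (0.915).

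The labelled cell type was checked against marker miRNAs, whose summed intensities are compared between the arrays within a list and not between lists. The 8 mesenchymal entries summed to an intensity of 211 with EPO and 271 without, and all 8 had ratios below 1, from 0.599 to 0.873. All 8 lay in the brightest group, where 63% of entries were below 1 with a median ratio of 0.942, against 43.9% of all entries. The 7 blood cell entries were also measured, summing to 67.6 with EPO and 80.0 without, with ratios from 0.659 to 1.75. Of these, miR-142-3p, a defining miRNA of blood cells, had 20714 steps with EPO and 21839 without. The 2 endothelial entries (17 to 116 steps, summing to 0.189 with EPO and 0.324 without) both passed 1.5-fold as lower, beside 7.58% of all entries. In the dimmest group, which held miR-126a-5p (0.556), 31 of the 207 entries passed as lower. In the second-brightest group, which held miR-126a-3p (0.589), 9 of 208 did. Of the 5 epithelial entries (6 to 68 steps, summing to 0.355 and 0.246), 4 had ratios above 1 and 3 passed 1.5-fold as higher, with a median ratio of 1.50. In the dimmest group, which held 3 of these 5, 46.4% of entries passed as higher and the median ratio was 1.42. The second-dimmest group held miR-200b-3p (1.50) and miR-205-5p (1.10). There 39 of 208 entries passed as higher, with a median ratio of 1.12. In the dimmest group, miR-429-3p (0.712) and miR-141-3p (1.90) lay below the upper quartile of 2.18. Above it lay miR-200c-3p (2.85, from 18 steps with EPO and 6 without). The paper reports a significant rise of this miRNA in EPO-MVs, with replicates. No marker entry was at 0. Members of the miR-23/27/24 family are made in blood cells and in stromal cells alike. The methods do not say that the fetal bovine serum in the medium was freed of vesicles. The part of either cell type, or of the serum, in the values above was not tested.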

How the data were processed

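RNA of EPO-MVs (1 array) and MSC-MVs (1 array) was measured on miRCURY LNA Arrays (version 18.0). The authors scanned the arrays, extracted intensities with GenePix Pro 6.0 and averaged repeated spots. Median normalization followed, its factor resting on miRNAs that reached an intensity of 30 everywhere. The deposited values are normalized intensities on a linear scale; the channel read and any background correction are not given in the sources used here.

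The MSC-MV value was the divisor of each ratio, without filter or pseudocount, and an entry was counted once it was 1.5-fold higher or lower. No p-value was computed. The number of arrays limits the precision. Values were converted to steps (whole multiples, tolerance 0.001), and entries were divided into 4 groups by mean log2 intensity. Named were all members, their seed relatives and the 2 nearest ratios per guide arm. Members and lists were chosen with earlier results of these data known. Another 11 settings were fixed at the start and 3 added after the values were seen. Counting was tested on simulated data. RefSeq tables of GRCm38.p6 gave sequences and gene names. Tools were statsmodels 0.14.6, numpy 2.4.6, pandas 2.3.3, matplotlib 3.10.9 and scipy 1.17.1 under Python 3.11.15.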

Additional observations from a re-analysis of the deposited data

How the results depend on the processing

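The 1 member past 1.5-fold, miR-23b-3p, was also the only 1 past it above the median intensity, with at least 30 or 60 steps on both arrays, with re-centring on all entries or on the brighter entries, and with the pseudocount. In these settings the share of the entries kept that passed as lower ran from 3.01% (pseudocount) to 8.54% (re-centring on all entries). Under quantile normalization and lowess the count was again 1, but it was miR-23b-5p (0.594 and 0.607) and not miR-23b-3p (0.768 and 0.752). Of all entries, 11.4% and 11.6% passed as lower there. No member passed with scaling to the 75th percentile (miR-23b-3p at 0.673), nor under any of the 3 settings added after the values were seen, which were the ratio of steps without scaling (0.684), scaling to the summed intensity (0.712) and re-centring on the brightest group (0.689). Where no member passed, 5.42% to 6.26% of all entries still passed as lower. A threshold of 2 left 0 members, while 10.6% of all entries passed it and 2.53% passed as lower. A threshold of 1.2 gave 6 members, all lower, while 55.4% of all entries passed it and 21.9% passed as lower.

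The median log2 ratio of the 11 members, -0.31, was -0.13 with the pseudocount at the 25th percentile, which shrinks dim entries by construction, and -0.18 with scaling to the summed intensity. That of the guide arms, -0.34, was -0.13 with quantile normalization, -0.13 with lowess and -0.21 with scaling to the summed intensity. Otherwise both stayed within 0.1 of these values. With scaling to the summed intensity, miR-24-3p, miR-24-1-5p and miR-27b-5p lay just above 1 (1.002, 1.01 and 1.02). The filters left out dim members, up to 4 of the 11. No paired analysis was possible because a single array stood for each condition. Background was not among the values analysed here, so no member can be called above or below it.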

Other observations

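Other miRNAs that have been linked to the bone or fat fate of mesenchymal cells, a list of 20 names, were read on the same arrays, and 17 were found. Of these, 14 had a ratio below 1 and 3 above, with a median ratio of 0.835 against 1.04 over all 831 entries, of which 43.9% were below 1. In the brightest group, which held 8 of the 17, the median ratio was 0.942 and 63% of entries were below 1. Past 1.5-fold were 3 of the 17, beside 25.4% of all entries, namely miR-143-3p as lower (0.648), and miR-135a-5p (43 steps in EPO-MVs and 11 in MSC-MVs, ratio 3.71) and miR-204-5p (40 and 25 steps, ratio 1.52), which represses the bone regulator Runx2, as higher. The higher pair was dim, whereas miR-143-3p had 15024 and 22016 steps. Also below 1 were miR-29b-3p, a repressor of collagen genes (0.753), and miR-130a-3p, which like miR-27 represses Pparg (0.799). The list shares miR-143-3p with the mesenchymal markers, and miR-205-5p (1.10) with the epithelial markers.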
